A study of Mus musculus with 4 samples.

Results

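The genes described here encode subunits of the 2 Polycomb repressive complexes. They were chosen by name, with earlier results of these data known. There were 10 of them among the 23420 gene symbols counted in each sample. *Ezh1*, *Ezh2*, *Eed*, *Suz12*, *Jarid2* and *Rbbp4* encode subunits of PRC2, and *Ring1*, *Rnf2*, *Bmi1* and *Cbx7* encode subunits of PRC1. RNA-seq was carried out on bulk prefrontal cortex (PFC) of C57BL6/J mice, with 2 samples per group. In the *Ash1L* shRNA group an adeno-associated virus (AAV) carrying a short hairpin RNA against *Ash1L*, driven by the U6 promoter in a GFP-tagged vector, was injected into the medial PFC on both sides. The control samples are labelled as injected with a GFP-AAV9, whereas the methods of the study describe a scrambled shRNA AAV as its control. Age was 6 to 8 weeks by the series' design text and 5 weeks at injection by the methods. The methods give 3 pooled mice per sample, and the design text lists 3 knockdown and 2 control mice in all, so the number of animals behind a sample is not settled and the p-values measure the spread between these 4 samples only. The U6 promoter is active in many cell types, and tissue punches hold infected and uninfected cells.

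Polycomb group proteins keep developmental genes silent. PRC2 places methyl groups on lysine 27 of histone H3 (H3K27me3) through EZH1 or EZH2, which need EED and SUZ12 for activity; RBBP4 binds histones, and JARID2 helps to recruit and stimulate the complex. PRC1 attaches ubiquitin to histone H2A through RING1 or RNF2 (also called RING1B) paired with a PCGF protein such as BMI1, and CBX proteins such as CBX7 read H3K27me3. In adult neurons, which no longer divide, *Ezh1* takes over much of the role that *Ezh2* has in dividing progenitors. ASH1L is a histone methyltransferase of the trithorax group, the classical opponents of Polycomb silencing, so the comparison asks whether the transcripts of the opposing complexes changed when *Ash1L* was knocked down.

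All 10 genes had a promoter window in RefSeq (build GRCm38.p6, the 250 bases before the annotated start), with 12 to 37 CpG dinucleotides per window against a median of 6 and an upper quartile of 16 over all 32851 windows. *Ezh1* and *Eed* lay between the median and the upper quartile. Promoter stretches of 4 genes are shown because the results below turn on them: the catalytic pair *Ezh1* and *Ezh2*, *Suz12*, and the one called gene, *Cbx7*. Each is the longest part of the window outside annotated exons, read 5′ to 3′ on the strand of the gene, with CpG dinucleotides in capitals.
Ezh1 (chr11:101226464-101226713, minus strand): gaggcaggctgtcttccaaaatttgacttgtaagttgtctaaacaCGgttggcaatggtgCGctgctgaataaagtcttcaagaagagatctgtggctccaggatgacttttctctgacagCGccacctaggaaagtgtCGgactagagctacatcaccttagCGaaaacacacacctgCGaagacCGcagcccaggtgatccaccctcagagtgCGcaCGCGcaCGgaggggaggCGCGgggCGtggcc
Ezh2 (chr6:47595059-47595183, minus strand): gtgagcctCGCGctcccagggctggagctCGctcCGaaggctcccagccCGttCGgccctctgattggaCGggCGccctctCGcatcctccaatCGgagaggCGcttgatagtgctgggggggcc
Suz12 (chr11:79992856-79993105, plus strand): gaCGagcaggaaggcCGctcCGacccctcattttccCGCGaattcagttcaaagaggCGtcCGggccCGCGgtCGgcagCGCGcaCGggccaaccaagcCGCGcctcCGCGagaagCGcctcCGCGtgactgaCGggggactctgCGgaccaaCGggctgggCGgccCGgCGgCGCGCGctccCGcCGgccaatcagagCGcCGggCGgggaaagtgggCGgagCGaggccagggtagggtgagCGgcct
Cbx7 (chr15:79932769-79932896, minus strand): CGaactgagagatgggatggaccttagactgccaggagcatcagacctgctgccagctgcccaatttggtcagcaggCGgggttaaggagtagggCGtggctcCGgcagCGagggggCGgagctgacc
The printed *Suz12* stretch of 250 bases held 37 CpG and that of *Ezh1*, of the same length, held 14. The printed stretches of *Ezh2* and *Cbx7* were shorter, 125 and 128 bases, and held 11 and 6 CpG. Their full windows of 250 bases each held 23 CpG. These 2 RefSeq windows (chr6:47595031-47595280 and chr15:79932647-79932896) lay inside the GENCODE gene models whose coordinates are given below. Those models begin further upstream, at chr6:47595341 for *Ezh2* and at chr15:79971119 for *Cbx7*. An E2F-type motif (TTTCCCGC or TTTGGCGC, either strand) was found in the *Suz12* window and in no other window of the 10 genes, against 1.3% of all windows. The E-box CACGTG, which reads alike on both strands, was found in the windows of *Rbbp4* and *Bmi1*, against 6.02% of all windows. These matches describe letters only.

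Total counts per sample ranged from 14251190 to 35764874, and the deepest and the shallowest sample were both controls. *Ash1l* itself (ENSMUSG00000028053, chr3:88950622-89079375) was at 245.0 and 290.1 CPM (counts scaled to a library of 1000000 with TMM normalization factors) in the control samples and at 216 and 137.5 in the *Ash1L* shRNA samples. Its log2 fold change was -0.60 (SE 0.22, adjusted p = 0.275 by the Benjamini-Hochberg method, edgeR's quasi-likelihood test), and it was -0.31 without *Ash1L* shRNA sample 2, the sample with the lower *Ash1l* level. The *Ash1L* shRNA samples also differed more from each other, with a chi-square per degree of freedom of 44.6 over genes, than the controls did, at 15.5. Following the study's definition, a gene was called DOWN or UP at an unadjusted p under 0.05 and a change of at least 1.2-fold. By this rule 8.28% of the 16232 genes tested were DOWN and 8.61% were UP; with edgeR 1 gene passed an adjusted p under 0.05, and it was no Polycomb gene. In both *Ash1L* shRNA samples together, 26.8% of genes lay below and 26.5% lay above both control samples.

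Among the 10 Polycomb subunits, *Cbx7* was DOWN and none was UP. *Cbx7* was lower in both *Ash1L* shRNA samples than in either control, beside 26.8% of all genes. *Ezh2*, *Suz12*, *Rbbp4* and *Rnf2* were higher in both, beside 26.5% of all genes, and were not called. The groups overlapped for the other 5. The median log2 fold change was 0.10, against 0.00 over all genes tested, with 3 genes below 0 and 7 above. A share of 1 in 10 is close to the background share of DOWN genes, so the count says nothing particular about these genes. With DESeq2 the count was also 1 DOWN and 0 UP. In bulk tissue, fewer cells of a type and less RNA per cell cannot be told apart.

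**Figure D1:**
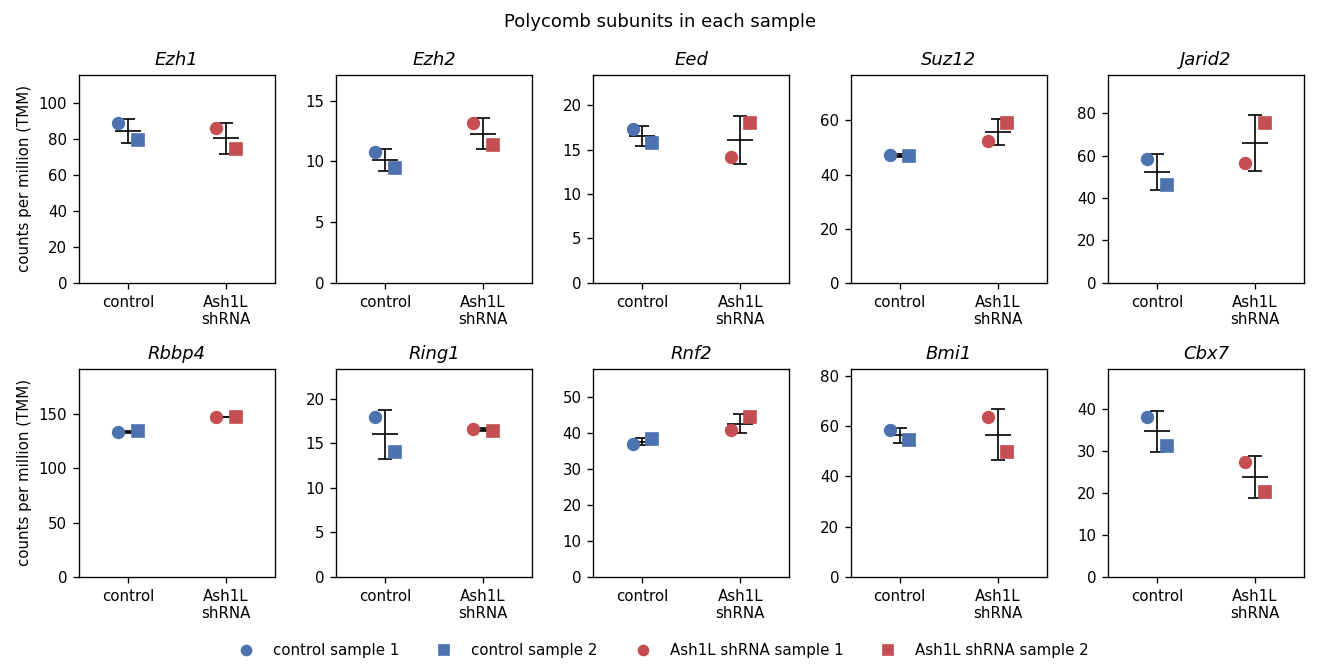
Normalized level of each Polycomb subunit (CPM with TMM factors, linear axes from 0) in the 2 control samples (blue) and the 2 *Ash1L* shRNA samples (red); circles are sample 1, squares are sample 2, and black bars are the mean ± SD of a group. *Cbx7* lies between 20.3 and 27.4 in the *Ash1L* shRNA samples and between 31.2 and 38.0 in the controls, while *Ezh1*, *Eed*, *Jarid2*, *Ring1* and *Bmi1* overlap between groups.

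The catalytic subunits of PRC2 were at very different levels. *Ezh1* (chr11:101191115-101226463) was at 88.8 and 79.3 CPM in the control samples and at 86.1 and 74.2 CPM in the *Ash1L* shRNA samples. The groups overlapped, and the 95% interval of the log2 fold change ran from -0.38 to 0.24. *Ezh2* (chr6:47530139-47595341) was at 10.8 and 9.49 CPM in the controls and at 13.2 and 11.4 CPM with *Ash1L* shRNA. Both *Ash1L* shRNA samples lay above both controls, yet the log2 fold change of 0.28 (SE 0.19, 95% interval -0.17 to 0.74) was not called (adjusted p = 0.462, edgeR). It was 0.17 without *Ash1L* shRNA sample 1 and 0.19 without control sample 2. *Ezh2* had the fewest reads of the 10 genes, 152 counts in control sample 1 and at most 361.

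Because a ratio of a pair of genes within a sample does not depend on the scaling of the library, paralogous subunits were also compared as ratios of raw counts. The *Ezh2*/*Ezh1* ratio was 0.121 and 0.120 in the controls and 0.153 in both *Ash1L* shRNA samples. The groups were thus separate and 1.27-fold apart (difference 0.35 on the log2 scale). The SE of 0.01 came only from the spread of 2 samples per group. That spread was narrower than the counting intervals given below, so the SE understates the uncertainty. An exact two-sided permutation test gave p = 0.33, which is the smallest value that 2 samples against 2 can give. When any sample was left out the difference stayed between 0.34 and 0.36 on the log2 scale. This range reuses the same close agreement within groups. The 95% counting intervals of single samples were wide: the interval of control sample 2 ran from 0.107 to 0.134 and that of *Ash1L* shRNA sample 2 from 0.134 to 0.176, and the interval of control sample 1, from 0.103 to 0.144, reached into both *Ash1L* shRNA intervals. Counting intervals cover counting error only.

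The other 4 pairs did not separate the groups. *Rnf2*/*Ring1*, the alternative ubiquitin ligases, was at 2.05 and 2.72 in the controls and 2.44 and 2.71 with *Ash1L* shRNA. *Rbbp4*/*Rbbp7*, histone-binding proteins that replace each other in PRC2, was at 1.02 and 0.93 against 0.95 and 0.81. *Bmi1*/*Pcgf2* was at 7.45 and 6.69 in the controls and varied most with *Ash1L* shRNA, at 10.5 and 5.94. *Cbx7*/*Cbx6* was at 0.103 and 0.087 in the controls and at 0.096 and 0.073 with *Ash1L* shRNA. Exact permutation p-values of the 4 pairs ranged from 0.667 to 1. With 5 pairs compared, no pair could pass a threshold of 0.05 after any adjustment.

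**Figure D2:**
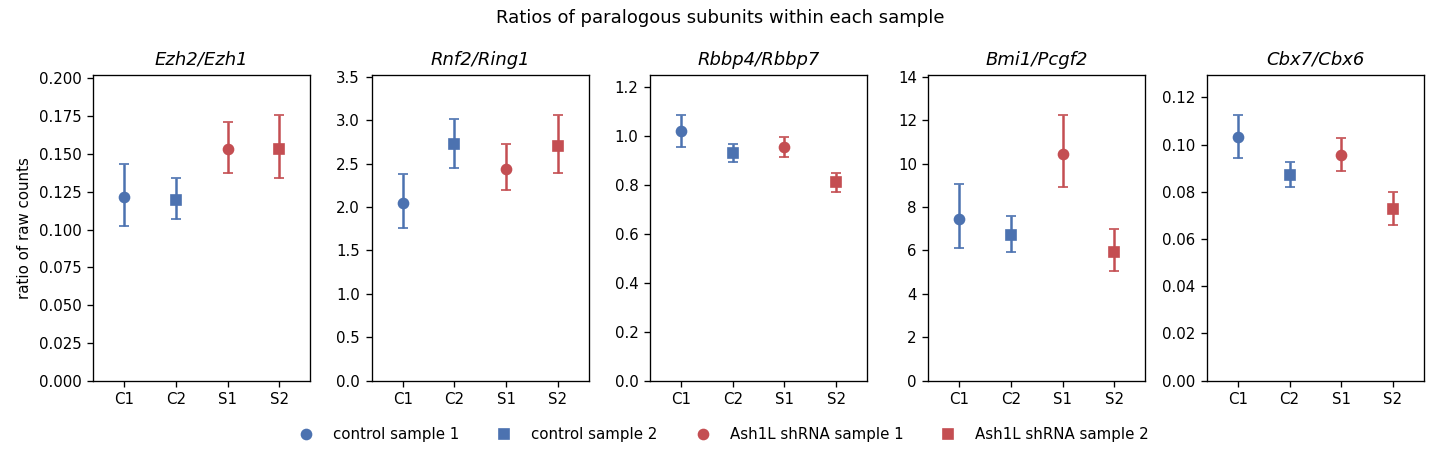
Ratio of the raw counts of 2 paralogous subunits within each sample (linear axes from 0) for control samples C1 and C2 (blue) and *Ash1L* shRNA samples S1 and S2 (red), with 95% counting intervals as bars. The *Ezh2*/*Ezh1* ratio is near 0.12 in both controls and at 0.153 in both *Ash1L* shRNA samples; the other 4 ratios overlap between groups.

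Of the noncatalytic PRC2 subunits, *Suz12* and *Rbbp4* were higher in both *Ash1L* shRNA samples. *Suz12* (chr11:79993106-80034123), the scaffold of the complex, was at 47.3 and 46.7 CPM in the controls and at 52.3 and 59.1 CPM with *Ash1L* shRNA. Its log2 fold change was 0.24 (SE 0.12, adjusted p = 0.350, edgeR), and it was called UP only without *Ash1L* shRNA sample 1, at 0.33, and was 0.16 without *Ash1L* shRNA sample 2. *Rbbp4* (chr4:129307100-129335370) was almost level within each group, at 132.9 and 133.9 CPM in the controls and 147.1 and 147.2 CPM with *Ash1L* shRNA. The difference was small, a log2 fold change of 0.14 (SE 0.10, 95% interval -0.11 to 0.39), below the 1.2-fold limit of a call. Part of the exons of *Rbbp4* is shared with other genes, 18.1% with *Gm26722* and 11.8% with *Sync*, and whether the counting used the strand is not given in the sources used here.

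*Eed* and *Jarid2* overlapped between the groups. *Eed* (chr7:89954654-89980983), whose protein binds H3K27me3 and activates the complex, was at 17.3 and 15.7 CPM in the controls and at 14.2 and 18.0 CPM with *Ash1L* shRNA. Its 95% interval ran from -0.47 to 0.40 on the log2 scale, so changes of that size could not be told from none. *Eed* shares 12.6% of its exonic bases with *E230029C05Rik* on the opposite strand, which had 36 to 147 counts per sample. *Jarid2* was at 58.2 and 46.4 CPM in the controls and at 56.6 and 75.4 CPM with *Ash1L* shRNA, the largest value coming from *Ash1L* shRNA sample 2. Its log2 fold change of 0.34 (SE 0.18, adjusted p = 0.378, edgeR) was called UP when *Ash1L* shRNA sample 1 was left out, at 0.53, and was 0.12 without *Ash1L* shRNA sample 2. Over the 6 PRC2 subunits the median log2 fold change was 0.19, and none was called.

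In PRC1, *Cbx7* (ENSMUSG00000053411, chr15:79915807-79971119, minus strand) was the one gene called. It was at 38.0 and 31.2 CPM in the controls and at 27.4 and 20.3 CPM with *Ash1L* shRNA. The groups did not overlap, with *Ash1L* shRNA sample 2 the lowest of the 4. The log2 fold change was -0.53 (SE 0.19, 95% interval -0.995 to -0.07, adjusted p = 0.264, edgeR). *Cbx7* remained DOWN with DESeq2 and with the other normalizations and filters. The call was lost without control sample 1, at -0.38, and without *Ash1L* shRNA sample 2, at -0.33, and *Cbx7* missed a limit of 1.5-fold.

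The ubiquitin ligases and *Bmi1* were not called. *Rnf2* (chr1:151458004-151500955), the main ligase of PRC1, was at 36.8 and 38.3 CPM in the controls and at 40.7 and 44.4 CPM with *Ash1L* shRNA, a log2 fold change of 0.18 (SE 0.12, adjusted p = 0.479, edgeR). *Ring1* (chr17:34020792-34024680), its paralog, was at 18.0 and 14.1 CPM in the controls and at 16.7 and 16.4 CPM with *Ash1L* shRNA, both between the controls. *Bmi1* (chr2:18677018-18686629), a PCGF protein of canonical PRC1, was at 58.6 and 54.4 CPM in the controls and on either side of them with *Ash1L* shRNA, at 63.8 and 49.6 CPM. Its log2 fold change was 0.01 with a 95% interval of -0.36 to 0.37.

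**Figure D3:**
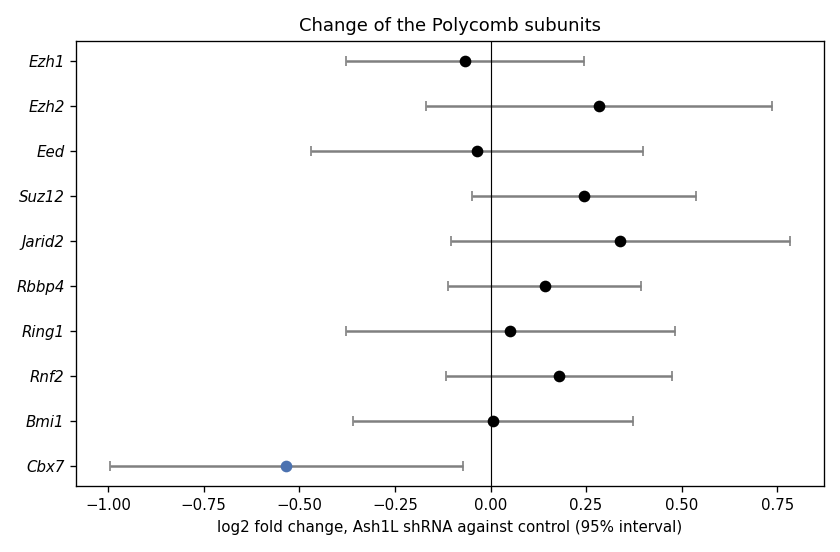
Log2 fold change of each Polycomb subunit, *Ash1L* shRNA against control (points), with its 95% interval (bars) from edgeR's quasi-likelihood fit over 16232 genes; blue marks the gene called DOWN. The interval of *Cbx7* lies below 0, from -0.995 to -0.07, and the other 9 intervals include 0.

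Some marker genes of neurons and astrocytes differed between the groups. Over all genes tested 8.28% were DOWN. Of 6 excitatory neuron markers 3 were DOWN, with summed levels of 2447 and 2922 CPM in the controls and 2249 and 1885 CPM with *Ash1L* shRNA. Of 6 interneuron markers 2 were DOWN (615 to 672 CPM in the controls, 560 to 584 CPM with *Ash1L* shRNA), and of 6 astrocyte markers 4 were DOWN (4646 to 4973 CPM against 3023 to 3891 CPM). The groups overlapped for the interneuron markers *Gad2* and *Slc32a1* and for the astrocyte markers *Aqp4* and *Gfap*, all named after their values were seen. None of 6 oligodendrocyte, 6 microglia or 6 endothelial markers was called with edgeR or DESeq2, but the summed microglia level was 696 CPM in *Ash1L* shRNA sample 1 and 298 CPM in sample 2, against 579 to 596 CPM in the controls. On the log2 scale from the control mean, *Cbx7* was at -0.33 in *Ash1L* shRNA sample 1 and at -0.77 in sample 2. The median of the excitatory neuron markers was at -0.25 and -0.64. One of them, *Rorb*, named after its values were seen, went the other way, at -0.40 and -0.11. The medians of the astrocyte markers, at -0.41 and -0.67, and of the interneuron markers, at -0.18 and -0.54, were also lower in sample 2. So were those of the oligodendrocyte markers, at -0.04 and -0.38, and the microglia markers, at 0.22 and -0.89. Endothelial markers, at 0.12 and -0.16, dividing cell markers, at 0.58 and 0.43, and lymphocyte markers, at -2.92 and -3.23, did likewise. The lower value in sample 2 was thus shared by the median of every marker list, but not by every marker. Among interneuron markers, *Gad1*, *Gad2* and *Slc32a1* were higher in sample 2 than in sample 1, and *Pvalb*, *Sst* and *Vip* were lower. All of them were named after their values were seen. The summed interneuron level was 560 CPM in sample 1 and 584 CPM in sample 2, and that of dividing cell markers 89.5 and 89.9 CPM. The part of neurons and astrocytes in the levels of *Cbx7* and of other Polycomb genes called DOWN was not tested.

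Of 10 markers of dividing cells, in which *Ezh2* is typically high, none was called with edgeR or DESeq2. Their summed level was 47.5 CPM in control sample 1 and 89.5 to 96.9 CPM in the other 3 samples, so control sample 2 stood with the *Ash1L* shRNA samples, whereas *Ezh2* was lowest in control sample 2. Of 7 lymphocyte markers tested 5 were DOWN, beside 8.28% of all genes. Their summed level was 38.3 to 70.9 CPM in the controls and 15.1 to 29.9 CPM with *Ash1L* shRNA. Most of each sum came from *Ptprc*, named after its values were seen, which was not called. It was at 30.3 and 56.3 CPM in the controls and at 28.0 and 13.9 CPM with *Ash1L* shRNA. No marker of any list was at 0 in any sample. The part of lymphocytes and dividing cells in the levels of the Polycomb genes was not tested.

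Divided by the exonic length of each gene, the order of levels in control PFC could be compared between genes. The length was that of all annotated exons merged, not of the transcripts present in PFC, so the order is approximate. *Rbbp4* was the highest at a mean of 30.3 CPM per kb, followed by *Bmi1* at 15.3, *Ezh1* at 13.8, *Rnf2* at 11.2 and *Suz12* at 10.8 CPM per kb. *Cbx7* at 10.2, *Jarid2* at 8.49, *Eed* at 7.98 and *Ring1* at 7.88 CPM per kb followed, and neighbours from *Suz12* down to *Ring1* overlapped between the control samples. *Ezh2* was the lowest, at 3.62 CPM per kb, separate from *Ring1* above it. *Ezh1* was thus the more abundant methyltransferase transcript per length in every sample. With *Ash1L* shRNA, *Cbx7* moved from the sixth to the ninth place at 6.99 CPM per kb, while *Rbbp4*, *Bmi1* and *Ezh1* held the top 3 places and *Ezh2* the last at 4.38 CPM per kb.

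**Figure D4:**
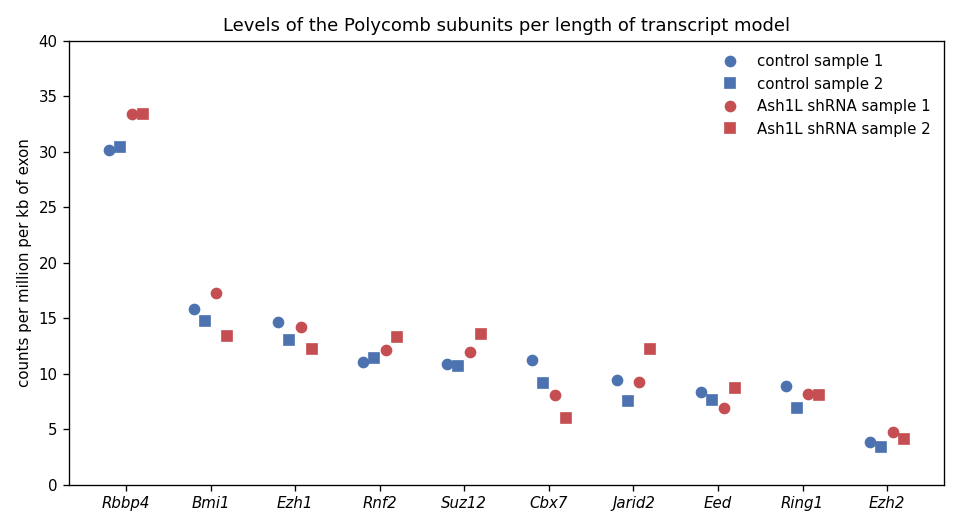
Level of each Polycomb subunit in CPM per kb of exon (linear axis from 0) in control samples (blue) and *Ash1L* shRNA samples (red), ordered by the control mean; circles are sample 1 and squares sample 2. *Rbbp4* stands above the rest at 30.3 on average in the controls and *Ezh2* lies lowest at 3.62; *Cbx7* drops below the points of *Jarid2* with *Ash1L* shRNA.

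The remaining Polycomb genes were taken from 5 lists, accessory PRC2 subunits, other canonical PRC1 subunits, variant PRC1 subunits, the enzymes that remove ubiquitin from histone H2A with their partners, and the H3K27 demethylases. All 50 were tested, and the lists were drawn up with earlier results of these data known. There were 6 DOWN and 2 UP genes among the 50, beside background shares of 8.28% and 8.61% of all genes, so neither count stands far from the background. The median log2 fold change was -0.08, with 32 genes below 0 and 18 above. Both *Ash1L* shRNA samples were below both controls for 23 of the 50 genes, beside 26.8% of all genes, and above them for 10, beside 26.5%.

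Other canonical PRC1 subunits held 3 of the DOWN genes. Of these 11 genes 10 were below 0, the median was -0.15, and in 8 both *Ash1L* shRNA samples were lower than both controls, beside 26.8% of all genes that were lower in both and 8.28% that were DOWN. *Cbx6*, another CBX reader and the most abundant of them, was at 369 and 358 CPM in the controls and at 286 and 279 CPM with *Ash1L* shRNA (log2 fold change -0.36, SE 0.11, adjusted p = 0.260, edgeR). It shares 9.7% of its exonic bases with *Npcd* on the same strand, where reads may be left uncounted. *Scmh1*, an SCM-family subunit, was at 28.8 and 26.1 CPM against 22.7 and 18.9 CPM, and *Phc1*, a polyhomeotic subunit, at 25.9 and 28.7 CPM against 19.9 and 22.9 CPM. *Scmh1* lost its call in 6 and *Phc1* in 10 of 12 alternative fits, with fold changes that stayed between -0.54 and -0.27 for *Scmh1* and between -0.45 and -0.26 for *Phc1*. *Phc3*, next in level to *Cbx6*, had a log2 fold change of -0.08. Per length, *Cbx8* at 2.53 and *Cbx2* at 0.70 CPM per kb were low in the controls, while *Cbx6* was at 62.6 CPM per kb. *Cbx6* and *Cbx7* lie 81.1 kb apart on chromosome 15. This neighbourhood was looked at after the values were seen. Of 30 tested genes within 500 kb, 4 were DOWN, *Cbx6* and *Cbx7* included, and 2 were UP, beside 8.28% and 8.61% of all genes. Their median log2 fold change was -0.03.

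Variant PRC1 subunits held 1 DOWN and 2 UP genes of 17, beside 8.28% and 8.61% of all genes. Their median log2 fold change was 0.01. *Pcgf3*, which defines one form of variant PRC1, was at 55.5 and 50.0 CPM in the controls and at 74.7 and 95.2 CPM with *Ash1L* shRNA. This was the largest change among the called Polycomb genes, a log2 fold change of 0.69 (SE 0.15, adjusted p = 0.250 in edgeR's quasi-likelihood test), and DESeq2 gave an adjusted p = 0.0247. How many of all genes passed an adjusted p under 0.05 with DESeq2 is not given here, so that value does not set *Pcgf3* apart. By the unadjusted rule DESeq2 called 1282 genes DOWN and 1243 UP. *Pcgf3* remained UP in each of the 12 alternative fits and at a limit of 1.5-fold. *E2f6*, a repressor that recruits the PCGF6 form, was at 33.7 and 26.4 CPM against 42.4 and 47.8 CPM (log2 fold change 0.59, SE 0.16, adjusted p = 0.255, edgeR), and lost its call only without control sample 2. *Auts2*, which binds the PCGF3 and PCGF5 forms and is known as an autism risk gene, was at 36.1 and 34.8 CPM against 27.2 and 26.5 CPM (log2 fold change -0.40, SE 0.12, adjusted p = 0.260, edgeR). *Skp1a* and *Usp7*, the most abundant of this list, were not called, at 0.20 and 0.17.

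Accessory PRC2 subunits had no called gene of 9 with edgeR (median -0.17). *Rbbp7* was at 130.2 and 144.0 CPM in the controls and at 154.1 and 181.6 CPM with *Ash1L* shRNA (log2 fold change 0.29, adjusted p = 0.320, edgeR), and *Aebp2* was at 0.14. *Epop*, singled out after its values were seen, was at 27.8 and 29.7 CPM in the controls, at 23.6 CPM in *Ash1L* shRNA sample 1 and at 8.25 CPM in sample 2, and was DOWN with DESeq2. Among the 11 genes of the H2A deubiquitinases 2 were DOWN, beside 8.28% of all genes. These were *Asxl1*, an activator of BAP1, and *Ogt*, a BAP1 partner that attaches a sugar to many proteins. *Asxl1* was at 62.5 and 66.8 CPM against 54.1 and 48.2 CPM, and *Ogt* at 287 and 314 CPM against 249 and 227 CPM, each with a log2 fold change of -0.34 (SE 0.12). *Bap1* itself was at -0.07. The H3K27 demethylases were not called with edgeR or DESeq2: *Kdm6a* was at 45.1 and 52.0 CPM against 44.4 and 32.9 CPM, and *Kdm6b* at 9.63 and 8.55 CPM against 8.58 and 22.5 CPM, its high value in *Ash1L* shRNA sample 2 alone. Without control sample 1 or without control sample 2 none of the 50 genes was DOWN, although fold changes were of like size (*Cbx6* at -0.33 and -0.39, *Auts2* at -0.37 and -0.43) and DOWN calls over all genes also fell, to 699 and 306. Calls among the 50 and over all genes also changed when an *Ash1L* shRNA sample was left out. The log2 fold change of *Cbx6* was then -0.39 without *Ash1L* shRNA sample 1 and -0.34 without *Ash1L* shRNA sample 2.

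**Figure D5:**
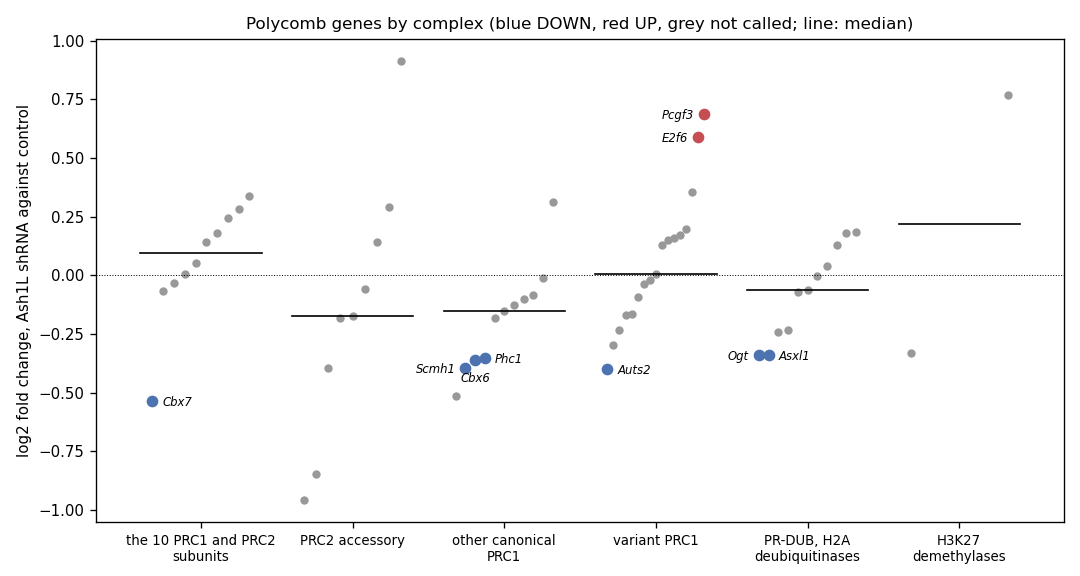
Log2 fold change, *Ash1L* shRNA against control, of the 10 PRC1 and PRC2 subunits and of 50 other Polycomb genes in 5 lists, ordered within a list; blue points were DOWN, red points UP, grey points not called, and black lines are list medians. In the other canonical PRC1 list 10 of 11 points lie below 0, and the called genes of all lists lie between -0.53 and 0.69.

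Genes known as Polycomb targets were mostly not measurable in PFC. The list held 74 genes, 39 of the Hox clusters and the others developmental regulators or cell cycle inhibitors, and 10 of them passed the filter on low counts. None of the 10 was DOWN or UP with edgeR or with DESeq2; their median log2 fold change was 0.17, with 2 below 0 and 8 above, and the groups overlapped for 8. No Hox gene passed, and 29 of 39 had no count in any sample. Summed over the Hox genes there were 2 and 11 counts in the controls and 6 and 26 counts with *Ash1L* shRNA, 14 of the last from *Hoxc13* alone. At these counts no difference in Hox genes was detectable.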

How the data were processed

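Total RNA from PFC was sequenced in 4 samples after ribosomal RNA depletion with a strand-marking kit. The authors deposited raw read counts per gene symbol, made with featureCounts (genome build mm10); the labels name both TopHat2 and STAR as the aligner, and the strand setting of the counting is not given in the sources used here. Counts were tested here with edgeR 4.0.16 (R 4.3.3): filterByExpr, TMM factors and the robust quasi-likelihood test on group, two-sided, with Benjamini-Hochberg adjustment over 16232 genes. The script was tested on simulated data. Levels per kb used exon lengths of GENCODE vM21 (GRCm38, the same build), which also gave coordinates; 92.8% of symbols matched. Alternatives were DESeq2 1.42.0, another edgeR test, other normalizations, filters and fold limits, a replicate block and leaving out each sample. Deviations of same-numbered samples from their group means correlated at -0.10. With 2 samples per group these deviations mirror each other, so this 1 value cannot settle whether the replicate numbers pair the samples. The Polycomb genes and all lists were chosen with earlier results of these data known. Named were the 10 subunits, *Ash1l*, each called gene and the 2 highest genes of every other Polycomb list, and both genes of each pair. *Cbx2* and *Cbx8* were added for their levels per length, and *Phf1* for its call with the replicate block. Genes sharing exons with these, *Hoxc13* and the genes said to be picked after their values were seen were named as well.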

Additional observations from a re-analysis of the deposited data

How the results depend on the processing

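Each arm left with 1 sample when a sample was left out was assumed to vary like the other group. Of the alternative values for single genes, 281 kept direction and side of the threshold, 34 lost a call, 8 gained one and 13 changed sign; the cause was not tested. Among the 10 subunits the DOWN count ranged from 0 to 1 when 1 sample was left out and was 0 at 1.5-fold. Their UP count ranged from 0 to 2 when 1 sample was left out, and was 1, *Jarid2*, with a crossed replicate block, an alternative chosen after seeing the data because same-numbered samples correlated at -0.10. Among the 50 other Polycomb genes the DOWN count ranged from 0 to 8 when 1 sample was left out and was 0 at 1.5-fold, and the UP count from 1 to 6. With the replicate block 1 of the 10 subunits was DOWN and 0 UP, and 5 and 2 of the 50 other genes, where *Asxl1*, *Ogt* and *Phc1* were no longer DOWN and *Phf1* and *Epop* were; *Cbx7* had a log2 fold change of -0.55 with the block. Over all genes the counts left with 1 sample out ranged from 306 to 2718 DOWN and 423 to 2368 UP. Leaving out samples gave ranges of -0.18 to 0.0388 for *Ezh1*, -0.21 to 0.13 for *Eed*, -0.13 to 0.24 for *Ring1*, -0.19 to 0.18 for *Bmi1*, -0.0022 to 0.27 for *Aebp2*, -0.0742 to 1.31 for *Kdm6b* and -0.39 to 0.0554 for *Pcgf2*. *Eed* was at 0.0088 with library size only, and *Bmi1* at -0.0056 with the replicate block and -0.0010 with the crossed block. The log2 ratio difference ranged from -0.0824 to 0.33 for *Rnf2*/*Ring1*, -0.25 to 0.57 for *Bmi1*/*Pcgf2* and -0.38 to 0.012 for *Cbx7*/*Cbx6*. Without the filter on low counts 40 target genes were tested. The low counts of *Ezh2* and the Hox genes limit their precision.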
